A study of Mus musculus with 45 samples.

Results

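Adipocyte gene expression was compared between female C57BL/6 mice lacking apolipoprotein E (ApoE -/-, 'E' mice) after 16 weeks (EW16, n = 8) and after 8 weeks (EW8, n = 6) of a Western (high-fat) diet. These 14 mice were chosen by their labelled genotype, diet and duration from the 45 mice of the series, and all 45037 probe sets of the array were compared. Both groups started the diet at 8 weeks of age, so EW8 mice were 16 and EW16 mice 24 weeks old at collection. The 45 arrays include none of E mice on chow for 8 weeks, so weeks on the diet and age cannot be told apart within this genotype. Further mice are used for reference. EC16 mice (n = 5) were ApoE -/- mice fed chow for 16 weeks. The 'D' mice (IR+/- IRS1+/- ApoE-/-) carried, besides the apolipoprotein E deletion common to every mouse here, 1 deleted copy each of the insulin receptor and of insulin receptor substrate 1, and were fed Western diet (DW8, n = 5; DW16, n = 9) or chow (DC8, n = 7; DC16, n = 5). RNA came from adipocytes isolated from parametrial and periovarian fat, 1 array per mouse. In such bulk RNA, fewer cells of a type and less RNA per cell cannot be told apart.

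White adipocytes store triglyceride after meals under insulin and release fatty acids by lipolysis when insulin is low. A high-fat diet enlarges them, and expanding fat is known for remodelled extracellular matrix, local transforming growth factor beta (TGF-beta) signaling, altered stress pathways and infiltrating macrophages. ApoE null mice carry high plasma cholesterol, and the Western diet raises it further. The preparations read as adipocytes by their markers. On the deposited log2 scale the mean EW8 levels were 14.77 for Fabp4 (the fatty acid carrier of adipocytes), 14.62 for Adipoq (adiponectin) and 14.62 for Lpl (lipoprotein lipase), with EW16 means of 14.38, 14.22 and 14.44.

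The 8 EW16 arrays did not form 1 group. EW16 mice 1 to 3 had a narrow range of values, with an SD over all probe sets of 2.109 to 2.319 log2 units, as had 7 of the 9 DW16 arrays (2.138 to 2.345), against 2.394 to 2.528 in the other 35 arrays. The array closest to each of these 3 mice was a DW16 array. EW16 mouse 4 correlated at a mean r of 0.9917 with the EW8 arrays and only at 0.9815 with EW16 mice 5 to 8. Each of EW16 mice 5 to 8 had a mean r of 0.9938 to 0.9947 with the others of this set. Their mean r with the EW8 arrays was 0.9765 to 0.979. Each EW8 mouse had a mean r of 0.9821 to 0.9918 with the other EW8 mice, the lowest mean being that of EW8 mouse 5. All these correlations are across probe sets. No 2 arrays held identical values. Because mouse 4 lay with the EW8 arrays and mice 1 to 3 and 5 to 8 lay apart from each other, results are given for all 8 mice and with these sets left out. What set these arrays apart was not tested.

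**Figure D1:**
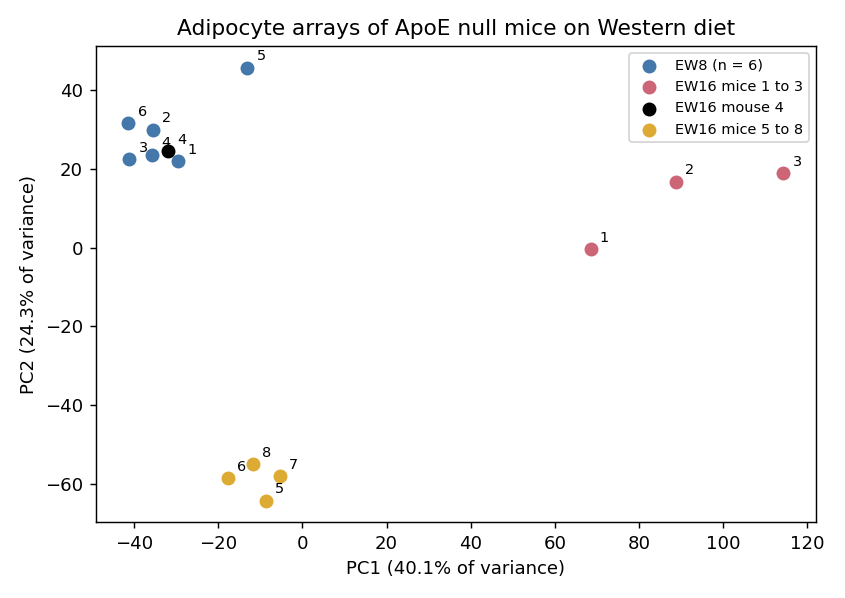
First and second principal components (PC1, PC2) of the 14 arrays over all probe sets, as deposited, with mouse numbers beside the points. EW16 mouse 4 lies among the EW8 mice, EW16 mice 1 to 3 lie far along PC1 (68.47 to 114.3) and EW16 mice 5 to 8 lie low on PC2 (-64.23 to -54.94).

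With all 8 EW16 mice, most probe sets past the threshold were lower after longer feeding, while the median difference over all probe sets was 0.06. At an adjusted p below 0.01 (limma, Benjamini-Hochberg over all probe sets), 706 probe sets differed as deposited (1.57%), of which 642 fell (1.43%) and 64 rose (0.142%). After quantile normalization over all 45 arrays, which gives every array the same distribution, 416 differed (0.924%), 312 lower (0.693%) and 104 higher (0.231%). At an adjusted p below 0.05 these became 9.99% and 8.13% of all probe sets. Both analyses called 298 probe sets in the same direction (0.662%), 262 lower (0.582%) and 36 higher (0.0799%), from 265 genes. In 146 of these 298 the EW16 and EW8 mice did not overlap, while over all probe sets every EW16 mouse lay below every EW8 mouse in 0.973% and above in 0.608%. With mouse 4 set aside this was so in 289 of the 298, against 5.62% below and 2.41% above over all probe sets. The 298 were chosen on these same mice, and mouse 4 was set aside after its values were seen. Their separation is therefore no independent evidence.

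These counts depended on single mice. Without EW16 mouse 4 the deposited values gave 3300 calls (7.33%) and the quantile normalized values 3035 (6.74%). Without any 1 of the other 13 mice the deposited values gave 2 to 31. Without EW16 mice 1 to 3 there were 9 calls (0.02%) as deposited and 0 after quantile normalization (limma, 12809 at an unadjusted p below 0.05). At an adjusted p below 0.05, however, 5385 and 5338 probe sets passed without these mice, against 4497 and 3660 with all mice. The comparisons of 1 set of EW16 mice with the EW8 mice gave more calls and a more even split. These sets were formed after the same values had been seen, so their counts of calls are a description only. EW16 mice 5 to 8 alone gave 2690 higher and 3628 lower as deposited (14% of all probe sets), and 3035 higher and 3460 lower after quantile normalization (14.4%). EW16 mice 1 to 3 alone gave 2215 higher and 6102 lower as deposited (18.5%), and 2905 higher and 3116 lower after quantile normalization (13.4%). Of the 298 shared probe sets 295 were called with mice 5 to 8 alone and 282 with mice 1 to 3 alone as deposited. The 298 were chosen on these same mice, so their direction in subsets of them is no independent evidence. All 298 had an adjusted p below 0.05 without EW16 mice 1 to 3 as deposited. At their probe sets mouse 4 had moved from the EW8 mean by a median of 24.5% of the shift of the other 7 EW16 mice, and in 142 of 298 it lay inside the EW8 range.

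The largest fall shared by both analyses was that of Pmepa1, and Tgfb1 was also among the 15 largest. Pmepa1 encodes a membrane protein that binds SMADs and restrains TGF-beta signaling. Its probe set 1422705_at read 9.8 to 10.66 in EW8 mice (median 10.22) and 5.54 to 9.18 in EW16 mice (median 7.35), with mouse 4 the highest of the EW16 mice. The difference was -2.98 on the log2 scale (SE 0.424, adjusted p = 0.0057), and all 8 EW16 mice lay below all EW8 mice. Tgfb1, the ligand itself, ranged from 7.63 to 8.74 (median 8.34) in EW8 mice. In EW16 mice it was 5.16 to 5.37 in mice 1 to 3, 6.11 to 6.48 in mice 5 to 8 and 8.14 in mouse 4. It fell by 2.17 (SE 0.381, adjusted p = 0.00676), with 7 of 8 EW16 mice below the EW8 range.

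Junb, Trib1, Prkx and Cdkn1b fell as well. Junb, a subunit of the AP-1 transcription factor, ranged from 10.97 to 11.8 in EW8 mice, from 8.54 to 9.45 in the EW16 mice other than mouse 4, and was 11.74 in mouse 4. It fell by 2.12 (SE 0.395, adjusted p = 0.00778). Trib1, a pseudokinase that directs C/EBP-alpha to degradation, ranged from 10.11 to 11.14 in EW8 mice and from 8.14 to 8.59 in the same 7 EW16 mice, with mouse 4 at 10.22 inside the EW8 range. The difference was -1.89 (SE 0.278, adjusted p = 0.0057). Prkx, a kinase related to the catalytic subunit of protein kinase A, was separated in all mice, with 7.34 to 8.45 in EW8 and 5.44 to 7.15 in EW16 mice (difference -2.01, SE 0.239, adjusted p = 0.00377). Cdkn1b, the cell cycle inhibitor p27, fell by 1.90 at 1 probe set (5.32 to 6.67 in EW8 mice, 3.66 to 5.1 in EW16 mice, adjusted p = 0.0057), while its brighter probe set, at an EW8 mean of 7.793, differed by 0.03 (adjusted p = 0.914).

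A mitochondrial enzyme and several transporters and vesicle proteins were also among the 15. Mccc2, a subunit of methylcrotonyl-CoA carboxylase in leucine breakdown, ranged from 8.73 to 9.41 in EW8 mice, was 6.11 to 6.6 in EW16 mice 1 to 3, 7.24 to 7.56 in mice 5 to 8 and 8.92 in mouse 4 (difference -1.99, SE 0.351, adjusted p = 0.00677). Slc25a39, the mitochondrial glutathione carrier, fell by 2.25 (SE 0.33, adjusted p = 0.0057), with EW8 mice at 10.31 to 11.22 and EW16 mice at 7.74 to 10.29. Slc4a4, a sodium bicarbonate cotransporter, fell by 1.92. The remaining members of the 15 largest falls were Scoc (-2.39), a Golgi protein, Rab14 (-2.07) and Gbf1 (-1.94), which act in vesicle traffic, Tmem109 (-2.05), the adhesion molecule Nectin3 (-1.92) and the Integrator subunit Ints8 (-1.88). In 9 of these 15 genes mouse 4 was not below the EW8 range.

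**Figure D2:**
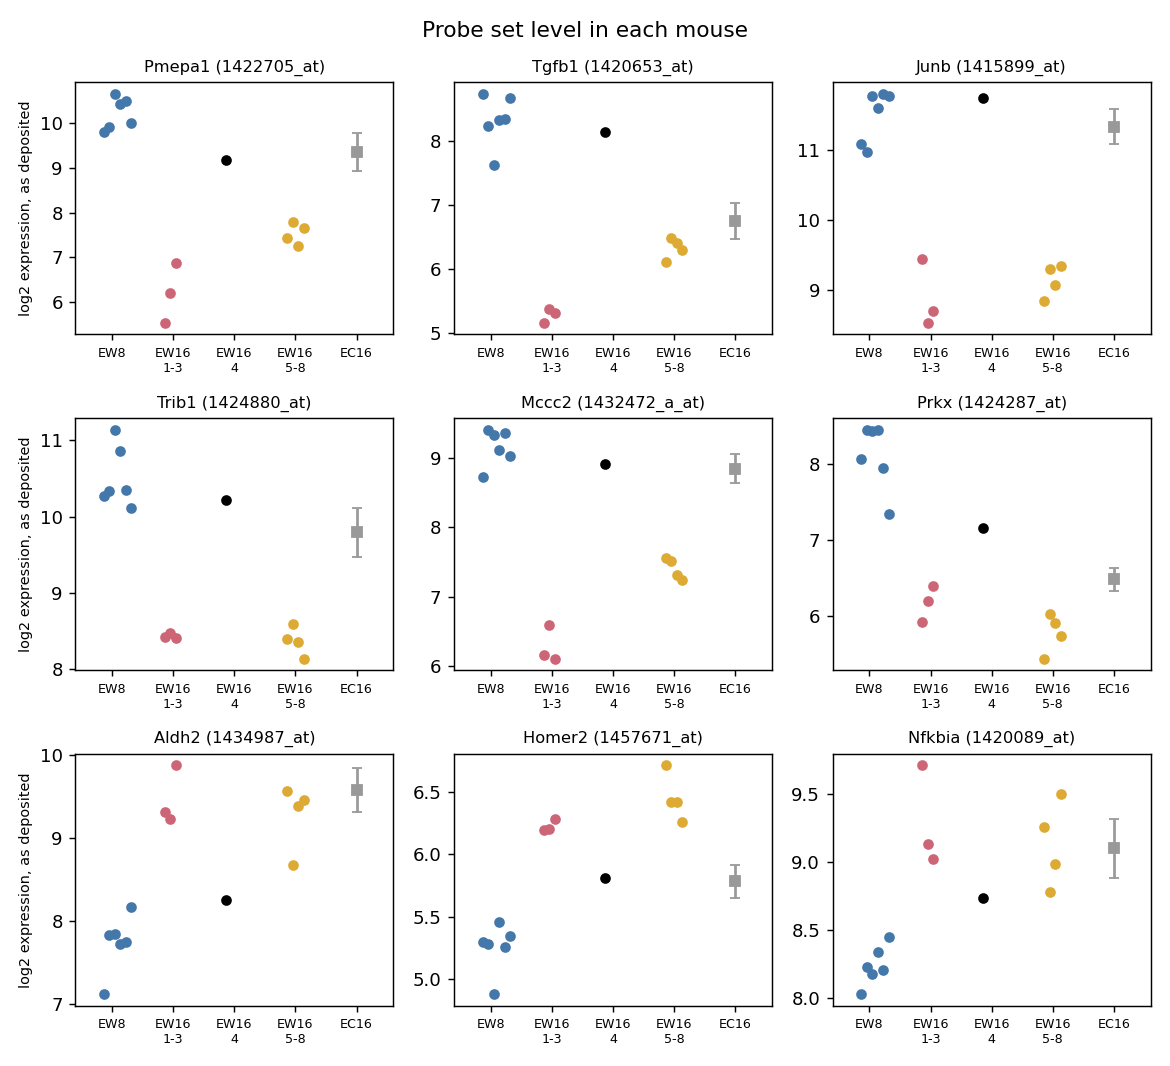
Level of 9 probe sets in each mouse on the deposited log2 scale, with EW8 mice, EW16 mice 1 to 3, mouse 4 and mice 5 to 8 as points and the 5 EC16 mice as mean ± SD. The first 6 panels are falls and the last 3 are rises, and mouse 4 lies between the EW8 mice and the other EW16 mice or among the EW8 mice.

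Among the shared calls rises were fewer than falls, 36 against 262. The largest was B3galt1, a galactosyltransferase, which ranged from 5.7 to 6.59 in EW8 mice and from 7.73 to 8.62 in EW16 mice other than mouse 4, which read 6.31 (difference 1.80, SE 0.295, adjusted p = 0.00635). Tfr2, transferrin receptor 2, was 5 to 6.66 in EW8 and 6.37 to 8.7 in EW16 mice (difference 1.74, SE 0.34, adjusted p = 0.00931). Aldh2, the mitochondrial aldehyde dehydrogenase that clears acetaldehyde and lipid peroxidation products, was separated in all mice, at 7.12 to 8.17 in EW8 and 8.26 to 9.88 in EW16 mice (difference 1.49, SE 0.225, adjusted p = 0.0057). Homer2, a scaffold protein, was also separated, at 4.88 to 5.46 against 5.81 to 6.71 (difference 1.03, SE 0.124, adjusted p = 0.00377). Pdpk1, the kinase that phosphorylates AKT downstream of the insulin receptor, ranged from 7.62 to 8.53 in EW8 and from 8.46 to 9.8 in EW16 mice (difference 1.10, adjusted p = 0.00676). The other Pdpk1 probe set differed by -0.22. The other 10 of the 15 largest rises were Rpl27a (1.29), Atp5a1 (1.22), Cep128 (1.09), Dcun1d4 (1.02), Pacc1 (1.01), Preb (0.99), Pttg1ip (0.94), the noncoding RNA Oip5os1 (0.91), Nfkbia (0.90) and Tfcp2 (0.90).

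Most of these calls rested on 1 probe set of a gene. Of the 265 genes, 209 had further probe sets, and in 11 of those at least 2 probe sets were called by both analyses. The 15 falling genes had 40 other probe sets, of which 24 had the same sign, 2 were called in the same direction and 0 in the opposite one. The 15 rising genes had 32 others, of which 19 had the opposite sign, 2 were called lower and 1 was called higher. Over all the genes with a shared call there were 469 other probe sets, of which 291 (62%) had the same direction, 79 of them at an adjusted p below 0.05, and 14 had an adjusted p below 0.05 in the opposite direction. Nfkbia, the NF-kB inhibitor, shows the split: probe set 1420089_at, at an EW8 mean of 8.241, rose by 0.90, whereas 1448306_at, at 13.56, fell by 1.54 (adjusted p = 0.00587) and 1420088_at, at 14.15, differed by -0.08 (adjusted p = 0.697). Aldh2 rose at a second probe set (1.06, adjusted p = 0.00968) but differed by -0.10 at 1448143_at (EW8 mean 12.35, adjusted p = 0.796). Pmepa1 differed by -1.07 (adjusted p = 0.0105) and -1.29 (adjusted p = 0.0797) at its other 2 probe sets.

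The 11 genes with 2 or more called probe sets were named after their values were seen. Lower at both were Aldh18a1 (-0.76 and -1.85), which makes the proline precursor pyrroline-5-carboxylate, the kinase Camk1 (-1.51 and -1.62), the endothelial secreted factor Egfl7 (-0.82 and -0.75), the histone deacetylase Hdac2 (-1.01 and -1.39), the replication helicase subunit Mcm3 (-1.09 and -0.97), the adhesion molecules Nectin3 (-1.92 and -0.90) and Pvr (-1.23 and -1.11), and the scaffold Slc9a3r2 (-1.09 and -1.19). Aldh2 was higher at both. Dhps (0.52 and -1.15) and Pacc1 (1.01 and -0.64) were called in opposite directions at 2 probe sets. The 2 smallest adjusted p-values of all belonged to 4632427E13Rik (difference -1.47, adjusted p = 0.000657) and Jmy (difference -1.74, adjusted p = 0.000673), a p53 cofactor that nucleates actin. Other probe sets of these genes did not all follow: those of Jmy differed by -0.05 to 0.15, and those of 4632427E13Rik by -0.69 to 0.35.

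**Figure D3:**
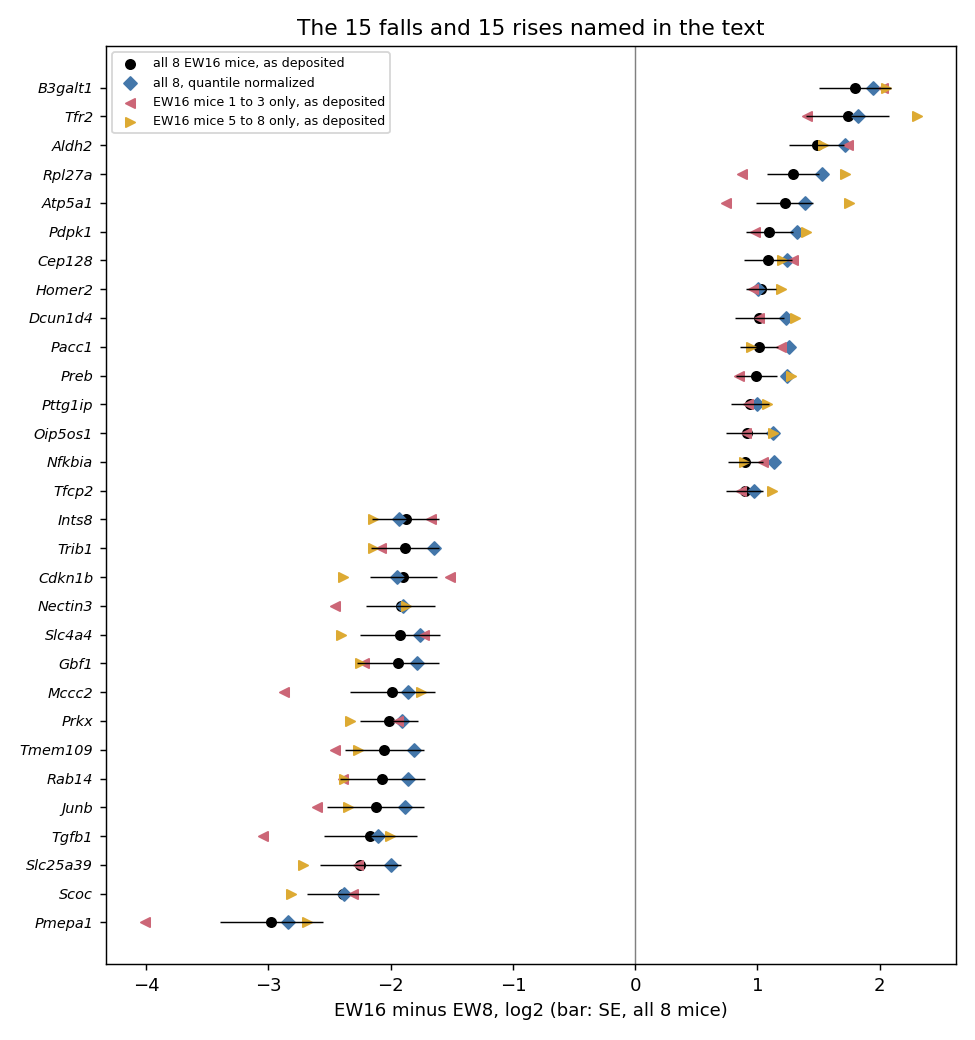
Difference EW16 minus EW8 (log2) of the 15 largest falls and 15 largest rises called both as deposited and quantile normalized, with the SE of the deposited difference. The values for EW16 mice 1 to 3 alone and for mice 5 to 8 alone lie on the same side of 0 as those for all 8 mice in all 30 genes.

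Gene lists were counted with 1 probe set per gene, the one with the highest mean over the 45 arrays. Over 18193 genes 307 fell (1.69%) and 28 rose (0.154%) as deposited, and 144 fell (0.792%) and 62 rose (0.341%) after quantile normalization, with a median difference of 0.04 and 0.05. Of 21 adipocyte identity genes 1 fell as deposited at the probe set counted, Rarres2 (chemerin), from 11.89 to 10.72 (difference -1.16, adjusted p = 0.00659; quantile normalized adjusted p = 0.0334). A dimmer Fabp4 probe set than the one given above, not counted here, also fell as deposited, from 10.9 to 9.6 (difference -1.30, adjusted p = 0.00645). After quantile normalization its adjusted p was 0.0191. A Cebpb probe set, likewise not counted here, differed by -1.55 as deposited (adjusted p = 0.00817, and 0.0117 after quantile normalization). The median of the adipocyte identity list was -0.42, and -0.19 after quantile normalization. By mouse and after quantile normalization it stood at -0.56 to -0.36 in EW16 mice 1 to 3, -0.01 in mouse 4 and -0.14 to 0.01 in mice 5 to 8, against -0.07 to 0.06 in EW8 mice. None of the 22 genes of fatty acid and triglyceride synthesis, 14 of lipolysis, 18 of fatty acid oxidation, 16 of cholesterol synthesis and uptake or 12 of LXR targets was called in either analysis by limma. In that order, 1, 2, 2, 1 and 3 of them were lower at an adjusted p below 0.05 as deposited, against 8.61% of all genes, and 1, 1, 0, 0 and 0 after quantile normalization, against 5.28%. In the upward direction 0 passed as deposited, against 2.77% of all genes, and 0, 1, 1, 1 and 0 after quantile normalization, against 4.55%. The cholesterol list had the only positive median of the 5 as deposited (0.16, and 0.35 quantile normalized). The deletions carried by D mice do not apply here. Insr differed by 0.46 (EW8 mean 10.04, adjusted p = 0.181; quantile normalized 0.69, adjusted p = 0.0271) and Irs1 by 0.10 (EW8 mean 11.09, adjusted p = 0.839). Apoe read 7.426 in EW8 and 6.778 in EW16 mice (adjusted p = 0.126), all of which are null, so the array held no wild-type level to set beside it.

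Sugar and amino acid metabolism gave single calls. Of 17 glycolysis genes Ldhb fell by 1.08 (adjusted p = 0.00657; quantile normalized adjusted p = 0.0261). Of 23 genes of branched-chain amino acid breakdown and the TCA cycle, Bcat2, which starts the breakdown of these amino acids, fell by 1.69 as deposited (adjusted p = 0.00817; quantile normalized adjusted p = 0.0122), and the brightest Mccc2 probe set fell only after quantile normalization (-0.81, adjusted p = 0.00704). None of 26 oxidative phosphorylation genes was called by limma in either analysis, with 2 lower as deposited at an adjusted p below 0.05. Their median was -0.25 as deposited and 0.04 after quantile normalization.

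Of 32 genes of insulin receptor, PI3K, AKT and mTOR signaling, 2 fell in both analyses, Trib1 and Akt1. Akt1, the serine/threonine kinase of this pathway, was 7.85 to 9.57 in EW16 mice and differed by -1.10 (SE 0.214, adjusted p = 0.00912; quantile normalized adjusted p = 0.00695). The following members had larger adjusted p-values as deposited: Irs2 (-1.29, adjusted p = 0.0144), Tsc2 (-1.31, adjusted p = 0.0243) and Akt2 (-1.13, adjusted p = 0.0271). The median of the list was -0.22 and 0.01 in the 2 analyses. Quantile normalized and by mouse it was -0.27 to -0.05 in EW16 mice 1 to 3 and 0.14 to 0.25 in mice 5 to 8, with EW8 mice at -0.27 to 0.17.

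Extracellular matrix genes held 3 falls among 34 measured, the same 3 in both analyses: the matrix proteins Fbln2 (-1.33, adjusted p = 0.0057) and Fbln1 (-1.31, adjusted p = 0.00695) and Loxl1 (-1.55, adjusted p = 0.00778), an elastin crosslinking enzyme. Fbln2 was 7.4 to 8.76 in EW16 mice, with all 8 below the EW8 mice. A list of 35 genes of TGF-beta signaling was drawn up after Pmepa1 and Tgfb1 had been seen and is a description only. In it Tgfb1 and Bambi (-1.12, adjusted p = 0.00739), a decoy receptor, fell as deposited, and Tgfb1 alone after quantile normalization. For both lists the medians differed between the sets of mice: quantile normalized, the matrix list stood at -0.89 to -0.65 and the TGF-beta list at -0.72 to -0.57 in EW16 mice 1 to 3. In mice 5 to 8 they stood at -0.05 to 0.08 and -0.08 to 0.01, inside the EW8 ranges of -0.34 to 0.28 and -0.19 to 0.15.

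None of the following lists held more falls after quantile normalization than as deposited, and in some the count was equal. Over all genes the falls likewise went from 307 (1.69%) to 144 (0.792%). Of 29 cytoplasmic ribosomal protein genes Rplp2 (-1.16, adjusted p = 0.00645) and Rplp0 (-0.85, adjusted p = 0.00721) fell as deposited, and only Rpl4 after quantile normalization (-0.59, adjusted p = 0.0096). Here the sets of mice stood the other way round: quantile normalized, the list median was -0.59 to -0.42 in EW16 mice 5 to 8, -0.06 to 0.08 in mice 1 to 3 and -0.11 in mouse 4, against -0.14 to 0.21 in EW8 mice. Of 28 proteasome genes the subunits Psma4 (-1.22, adjusted p = 0.00645) and Psmd3 (-0.80, adjusted p = 0.00739) fell as deposited and 0 after quantile normalization (limma, 2 lower at an adjusted p below 0.05). Of 20 cytosolic heat shock protein genes the small chaperone Hspb8 fell in both (-1.49, adjusted p = 0.00817). Of 25 ER stress genes Atf4 fell as deposited (-0.72, adjusted p = 0.00676), not after quantile normalization (adjusted p = 0.137). The ER chaperone Hspa5 fell in both at a probe set not counted here, with an EW8 mean of 12.94 (-1.03, adjusted p = 0.0078, and 0.00842 after quantile normalization). Of 27 splicing factors Hnrnpl fell in both (-1.27, adjusted p = 0.00372), and Rbm25 (-1.14, adjusted p = 0.0057) and Tra2a (-0.83, adjusted p = 0.00668) as deposited. Among 22 NRF2 and glutathione genes, Gstm1 (-1.06, adjusted p = 0.00676) and Gclm (-1.02, adjusted p = 0.0077) fell as deposited, and the peroxidases Gpx3 (-1.56, adjusted p = 0.00856) and Gpx1 (-0.72, adjusted p = 0.00868) after quantile normalization.

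Counting 1 probe set per gene, as for all lists, only Junb of 33 immediate early genes was called, in both analyses. Fosl1 fell in both at a probe set not counted here (-1.51, adjusted p = 0.00679). Klf4 fell as deposited at a probe set not counted here (-1.41, adjusted p = 0.00937), but not after quantile normalization (adjusted p = 0.0119). None of 26 NF-kB and cytokine genes passed by limma, although 4 were lower at an adjusted p below 0.05. Among these were Nfkb2 (-1.33, adjusted p = 0.0109) and the eosinophil chemokine Ccl11 (-1.41, adjusted p = 0.0128). Nfkbia fell at 1448306_at (-1.54, adjusted p = 0.00587), a probe set not counted here. Of 26 interferon and antigen presentation genes Irf9, a subunit of the type I interferon transcription complex, fell in both (-0.99, adjusted p = 0.00739), and of 12 complement genes C1ra fell as deposited (-1.37, adjusted p = 0.00676). Of 25 proliferation genes Mcm3 fell in both (-1.09, adjusted p = 0.00677), while Mcm5 differed by 0.86 (adjusted p = 0.0374) and Mki67 by 0.86 (adjusted p = 0.07). The lists of hypoxia (19 genes), circadian clock (20), glucocorticoid (18), aryl hydrocarbon receptor (9), thermogenic (13), cell cycle inhibitor (16), imprinted (15), chromatin (25) and nuclear noncoding RNA genes (7) held 0 calls by limma in either analysis. At an adjusted p below 0.05 as deposited 0 of their genes were higher, 0 were lower in the aryl hydrocarbon receptor and chromatin lists, and 1 was lower in each of the others. After quantile normalization 2 aryl hydrocarbon receptor genes and 2 cell cycle inhibitor genes were higher at that level. So was 1 gene each of the hypoxia, clock and chromatin lists, while 2 imprinted genes and 1 hypoxia gene were lower. Probe sets not counted here fell as deposited for Hif1a (1448183_a_at, -2.33, adjusted p = 0.00657) and Cdkn1b (1419497_at, -1.90, adjusted p = 0.0057).

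**Figure D4:**
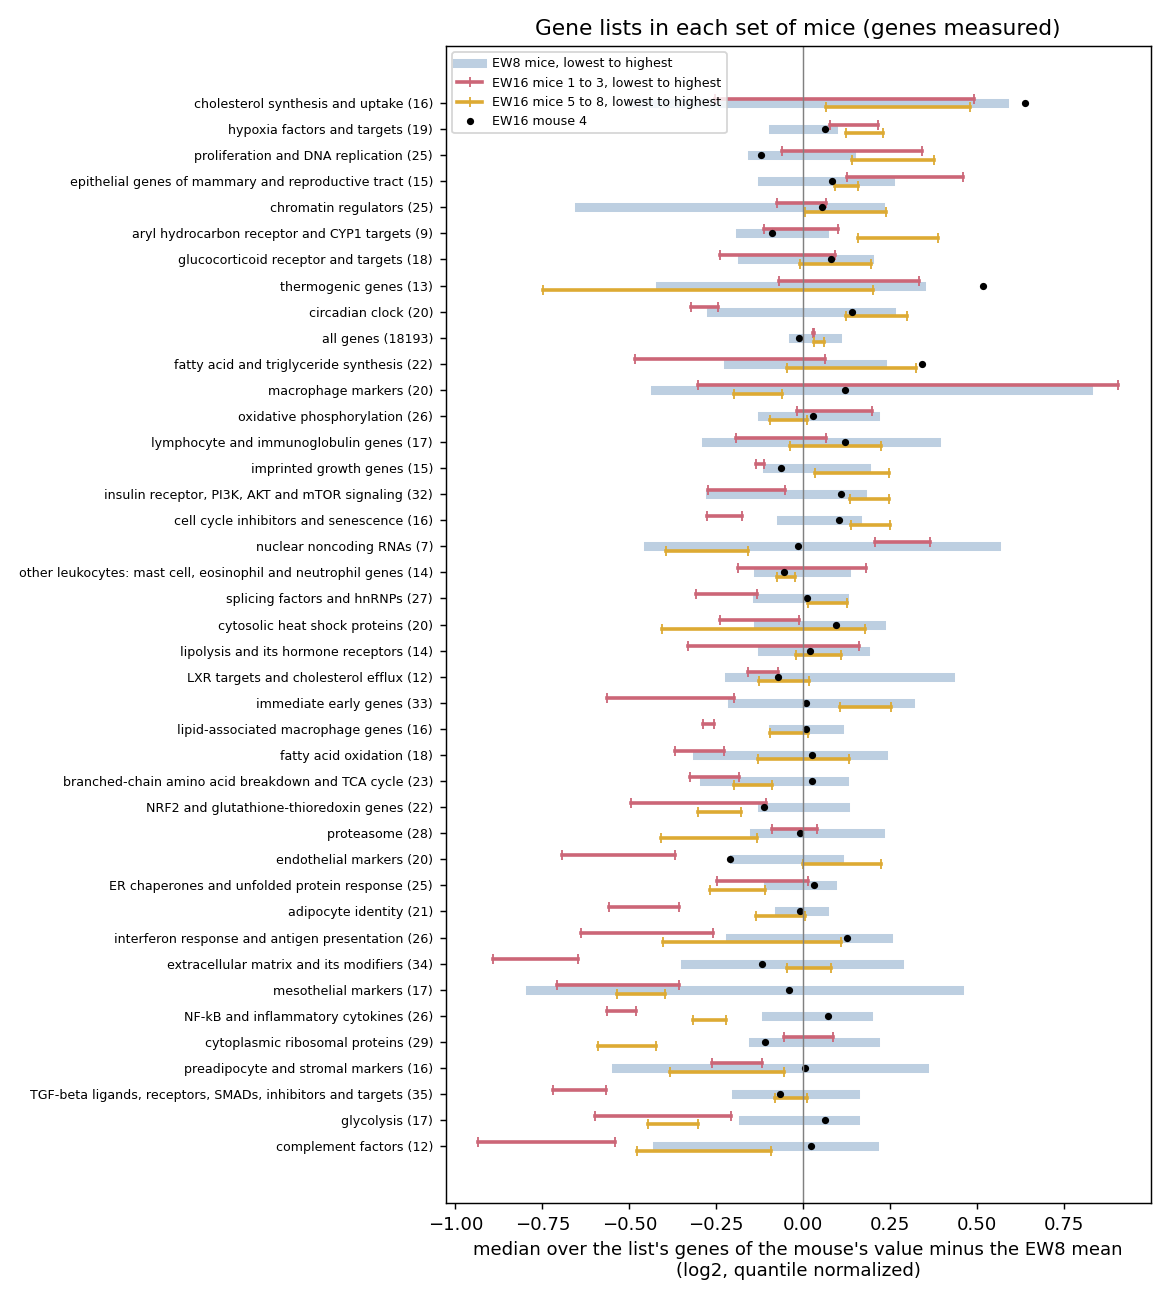
For each gene list (genes measured in parentheses) and for all genes, the median over its genes of each mouse's value minus the EW8 mean, on the quantile normalized log2 scale, drawn as the range over EW8 mice, EW16 mice 1 to 3 and EW16 mice 5 to 8 and a point for mouse 4. EW16 mice 1 to 3 lie below the other sets for matrix and TGF-beta genes, and mice 5 to 8 for ribosomal protein genes.

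Markers of other cells were read on the same arrays. Of 20 macrophage markers 0 were called by limma in either analysis, with 1 lower at an adjusted p below 0.05, Cd74 (-1.64, adjusted p = 0.0404). The defining marker Adgre1 differed by 0.59 (EW8 mean 8.856, adjusted p = 0.345). The quantile normalized median of the macrophage list ranged from -0.43 to 0.82 over EW8 mice and from -0.30 to 0.91 over EW16 mice. Of 20 endothelial markers Egfl7 fell in both analyses. Pecam1 differed by -0.01 (adjusted p = 0.989), and the list median was -0.69 to -0.37 in EW16 mice 1 to 3, -0.21 in mouse 4 and 0 to 0.22 in mice 5 to 8 (quantile normalized, EW8 -0.20 to 0.10). Mesothelial (17), stromal (16), lymphocyte (17), other leukocyte (14), lipid-associated macrophage (16) and reproductive tract epithelial genes (15) held 0 calls by limma, with 3, 0, 0, 0, 2 and 0 lower at an adjusted p below 0.05 as deposited. The mesothelial Wt1 differed by -1.19 (adjusted p = 0.0243) and Krt19 by -1.16 (adjusted p = 0.0243), and the mesothelial list ranged over EW8 mice from -0.79 to 0.45 (quantile normalized), wider than over EW16 mice. The part of these cells in the falls above was not tested.

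EC16 mice gave the level on chow at the same age as EW16 mice. For the 262 shared falls the EC16 mean lay nearer to the EW8 than to the EW16 mean in 210 (80.2%), and for the 36 rises in 21 (58.3%). These are positions of means, with no test. The share over all probe sets was not computed, and the calls were chosen on the EW16 and EW8 values. Whether these shares differ from those of probe sets in general is therefore not known. Junb (11.33 ± 0.247, SD, n = 5), Tmem109 (11.33 ± 0.0993) and Rab14 (9.969 ± 0.122) were in EC16 mice at levels like those of EW8 mice. Scoc (5.324 ± 0.297), Prkx (6.481 ± 0.148), Cdkn1b (4.132 ± 0.314) and Tgfb1 (6.751 ± 0.287) were nearer to the EW16 means. Aldh2 was 9.581 ± 0.266 in EC16 mice, above the EW8 mice and within the EW16 range.

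Values from D mice were set beside these, from mice that the E comparison did not use. DW16 against DW8 gave 2436 calls as deposited (5.41%) and 2479 after quantile normalization (5.5%). Of the 298 probe sets shared by both E analyses, 297 had the same sign in D mice as deposited and 98 (32.9%) were called in the same direction. The median D difference was -0.92 for the falls and 0.73 for the rises, against -1.13 and 0.93 in E mice. Over all probe sets 41.8% were lower in DW16 than in DW8. Without the 7 narrow-range DW16 arrays, which leaves 2 DW16 mice, 195 of 298 had the same sign and 0 were called. Over all probe sets this comparison gave 1 call (limma, 6021 at an unadjusted p below 0.05), and 42.9% were lower. Pmepa1 differed by -3.13 in D mice (adjusted p = 0.0014), Trib1 by -2.05 (adjusted p = 0.00331) and Junb by -2.02 (adjusted p = 0.0116), with narrow-range arrays included.

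On chow, DC16 against DC8 gave 0 calls in either analysis (limma, 3934 at an unadjusted p below 0.05 as deposited). As deposited, 179 of the 298 (60.1%) had the same sign, with a median difference of -0.03 for the falls and 0.19 for the rises. Over all probe sets 50.8% were lower in DC16 than in DC8. Pmepa1 differed by 0.12, Junb by 0.28 and Trib1 by 0.07, with adjusted p-values of 0.969, 0.583 and 0.941. Whether the time difference on Western diet itself differed between E and D mice was tested as an interaction over 4 groups. It gave 0 calls as deposited (limma, 3123 at an unadjusted p below 0.05) and 0 after quantile normalization (3884), with smallest adjusted p-values of 0.712 and 0.52. Without the 10 narrow-range arrays it gave 0 calls, with a smallest adjusted p of 0.0539 as deposited and 0.0486 after quantile normalization. At an adjusted p below 0.05 the latter gave 992 probe sets, 412 with a higher and 580 with a lower difference in E mice, and the former 0 (limma, 9059 at an unadjusted p below 0.05).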

How the data were processed

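Adipocyte RNA of each mouse was hybridized by the authors to an Affymetrix MG430-2.0 array, scanned with global scaling and summarized with RMA (version not given in the sources used here). The deposited values are log2 intensities, 1 per probe set, and were used as deposited and after quantile normalization over all 45 arrays, because the deposited distributions differed between arrays. Whether the 45 arrays were summarized together is not given in the sources used here, so whether narrow-range and other arrays share 1 scale as deposited is not known. Of 45037 probe sets 34945 carried 1 gene symbol, 932 several and 9160 none, and genes were named only from the first. EW16 and EW8 were compared with limma 3.58.1 in R 4.3.3 (lmFit, eBayes), calling an adjusted p (Benjamini-Hochberg, every probe set included) below 0.01. On simulated data for this comparison over 45037 probe sets the fit recovered 72 of 100 changes of 1 log2 unit. It recovered 94 of 100 of 2 units, with 0 false calls. The simulated noise was independent between probe sets and held no sets of mice like those among the EW16 arrays. These rates therefore need not hold for the real arrays.

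Named genes were the 15 largest falls and rises among probe sets called in both analyses, 1 per gene, with up to 4 members per list by adjusted p, defining markers, Apoe, Insr and Irs1. The mice compared and the 39 gene lists were chosen with earlier results of these data known, and a TGF-beta list was added later. The lists hold 902 entries, of which 820 were measured. They were described by counts and medians without a test. Hybridization batches and scan days are not given in the sources used here. Samples of a group are different mice, and their number limits the precision. Shared replicate numbers of EW8 and EW16 were checked as pairs: deviations from the group means correlated at -0.239 to 0.107 between mice of the same number, so no pairing was assumed.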

Additional observations from a re-analysis of the deposited data

Results flagged for a closer look

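Single mice were looked for that lay far from the rest of their group, by the gap to the nearest mouse over the range of the group (Dixon's 95% limit), in 70 sets of values, 1 set per group for each named probe set and 2 array measures. Of these 19 were past the limit, where chance gives about 1 in 20 (5%) for independent values. The named probe sets share the same arrays and were chosen on these mice, so their values are not independent. EW16 mouse 4 accounted for 13. It was the highest EW16 mouse for Scoc (6.258, the others 4.332 to 4.967), Slc25a39 (10.29, 7.738 to 8.548), Tgfb1 (8.139, 5.16 to 6.481), Junb (11.74, 8.536 to 9.449), Rab14 (10.11, 7.274 to 7.985), Tmem109 (11.08, 8.484 to 8.985), Gbf1 (8.942, 6.218 to 6.791) and Trib1 (10.22, 8.144 to 8.587). It was the lowest for B3galt1 (6.311, the others 7.729 to 8.622), Cep128 (6.631, 7.422 to 8.116), Dcun1d4 (7.567, 8.488 to 9.144), Oip5os1 (7.708, 8.496 to 8.955) and Tfcp2 (6.233, 6.91 to 7.452). In each of these the value of mouse 4 lay toward the EW8 mice.

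The other 6 were in EW8 mice, and in each the mouse was the lowest of its group. Mouse 1 was low for Rpl27a (8.16), Pacc1 (7.787) and Preb (9.224), mouse 3 for Homer2 (4.882), mouse 5 for Pdpk1 (7.62) and mouse 6 for Scoc (6.209).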

How the results depend on the processing

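The number of calls moved with most choices. As deposited there were 706 calls. There were 414 after quantile normalization over the 14 arrays and 416 over all 45, 9 without EW16 mice 1 to 3 and 0 with quantile normalization besides, 6 with each array's SD as a covariate, 4099 with 1 spread over all 7 groups, 6558 with array weights, 1427 among probe sets above the median level, 4497 at an adjusted p below 0.05 and 340 with at least a 2-fold change. Centring each array on its median (928) and moderation with trend and robust (639) stayed within 1.5 times. Settings chosen after seeing the data gave 6318 calls without EW16 mice 1 to 4 (6495 quantile normalized), 8317 without mice 4 to 8 (6021) and 0 without mice 5 to 8 (0). Leaving out 1 mouse gave 2 to 3300 calls as deposited and 2 to 3035 quantile normalized, both highest counts being those without EW16 mouse 4. At an adjusted p below 0.05 leaving out 1 mouse gave 2254 to 8201. The cause of these differences was not tested.

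With the replicate number as a block there were 0 calls (limma), and in 0 of 6 numbers did the EW8 mouse correlate best with its own number, so the pairing rests on a shared number alone. All 30 named falls and rises kept their sign in all settings run. They lost the threshold of 0.01 with the block, without EW16 mice 1 to 3 and without mice 5 to 8, and 29 of them with the SD covariate. Without mice 1 to 3 their adjusted p-values were 0.0116 to 0.023 and the differences were at least as large for Scoc (-2.44), Prkx (-2.06) and Atp5a1 (1.51) and smaller for Mccc2 (-1.45) and Tgfb1 (-1.64). Of 420 values, 1 for each of these genes and each mouse left out, 53 stayed past the threshold of 0.01. Most of the 53 came from leaving out EW16 mouse 4, without which all 30 genes stayed past it. Irs1 (0.0958 over all mice) was -0.0305 with the block, -0.48 without EW16 mice 4 to 8, -0.28 without mice 5 to 8 and ranged from -0.0739 (without EW8 replicate 5) to 0.2639 when 1 mouse was left out. Medians of the 40 lists moved by over 1 SD of the EW16 mice in 23 lists without mice 4 to 8. The brightest 10% of probe sets had a median difference of -0.26 as deposited and -0.01 after quantile normalization. The part of the narrow range of EW16 mice 1 to 3 in this was not tested.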

Other observations

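Some large differences varied between the sets of EW16 mice and were picked out after the values were seen. Malat1, an abundant nuclear noncoding RNA, differed by -3.26 at 1418188_a_at (EW8 mean 11.35) over all 8 mice (limma adjusted p = 0.0227), by -5.16 with mice 5 to 8 alone and by -1.62 with mice 1 to 3 alone. At its brightest probe set, 1418189_s_at (EW8 mean 13.41), it differed by -2.03 (adjusted p = 0.0293), while 1436202_at differed by 0.79 (adjusted p = 0.204). Hif1a, the hypoxia-inducible transcription factor, fell by 2.33 at 1448183_a_at (adjusted p = 0.00657; 0.0126 quantile normalized), with -2.98 for mice 5 to 8 alone and -1.95 for mice 1 to 3 alone, while its brightest probe set, 1427418_a_at, differed by -0.31 (adjusted p = 0.371). Gpx3, the secreted glutathione peroxidase, had the opposite order, with -1.67 for mice 5 to 8 alone and -2.54 for mice 1 to 3 alone. No test compared these sets of mice with each other.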
